A study of Mus musculus with 3 samples.

Results

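The genes described here are 5 genes of the Gata family, Gata2, Gata3, Gata4, Gata5 and Gata6, and the cofactor genes Zfpm1 (FOG1) and Zfpm2 (FOG2). They were chosen by name, and make up 7 of the 22342 protein-coding genes of the GENCODE vM1 annotation on mouse genome build mm9. Other genes of the family were not analysed here. GATA factors are zinc finger proteins that bind the core word GATA in DNA, and FOG proteins are zinc finger cofactors that do not recognise that word themselves but bind to GATA factors. Gata2, Gata3 and Zfpm1 act in blood cell formation, and Gata2 and Gata3 also in trophoblast. Gata4, Gata5, Gata6 and Zfpm2 act in heart development, and Gata4 and Gata6 in endoderm. In embryonic stem cells (ESCs) such lineage regulators are mostly silent and lie in bivalent chromatin, in which the Polycomb mark H3K27me3 is found together with marks of active promoters. The histone variant H2A.Z is found around promoters of both active and bivalent genes.

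The samples were 3 ChIP-Seq libraries of mouse ESCs, 1 per group, and asked where an H2A.Z with an altered acidic patch lies compared with the wild-type protein. The H2A.Z WT library came from an ESC line with a doxycycline-inducible (1 µg/ml) wild-type H2A.Z carrying yellow fluorescent protein (YFP) at its C-terminus. The H2A.Z AP3 library came from a line with the same transgene carrying the substitutions G92N, D97N and S98K in the acidic patch, a cluster of acidic residues on the nucleosome surface. In both lines a hairpin against the 3′ untranslated region depleted the endogenous H2A.Z, YFP-positive cells were sorted, and the tagged protein was immunoprecipitated with an antibody against GFP. The H3K27me3 library was labelled as wild type in genotype. The strain label read V6.5 (129SvJae x C57BL/6) throughout, although the transgenic lines were said elsewhere in the labels to derive from KH2 ESCs. Cells were kept off feeders for the last passage.

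For every library there were lists of enriched regions at a pair of Poisson thresholds, 1e-9, used for all values unless stated, and 1e-12. The lists hold the start and end of each region on a grid of 25 bp, with no height, fold or read count, so a level is given here as the number of base pairs (bp) covered. The depth of the libraries is unknown, and a place without a region is one that did not pass the threshold at that depth. With 1 library per group there was no replicate error and no test between groups. All comparisons below describe these libraries. The H2A.Z WT list held 78359 regions, the H3K27me3 list 16970 and the H2A.Z AP3 list 14599. The H2A.Z AP3 list stood apart on chromosomes 6 and 8, where 80.7% and 75.7% of promoters with both H2A.Z WT and H3K27me3 also carried H2A.Z AP3, against 34.1% to 53% on the other autosomes and 14% on the X chromosome. H2A.Z WT was also more frequent there. It was at 77% of promoters on chromosome 8, the highest of any chromosome, and 67.2% on chromosome 6, against 60.9% over all genes. Of 52744 H2A.Z WT regions in gene windows, 9774 lay on chromosomes 6 and 8, which hold 1171 and 1082 of the 22342 genes. Gata2 lies on chromosome 6 and Zfpm1 on chromosome 8, and the part that these differences play in their values was not tested. The cells were checked against ESC genes by H3K27me3 within 2 kb of a coding start. Of 8 such genes, 7, including Pou5f1 and Nanog, had no H3K27me3 region, and Esrrb had 2908 bp. Only 17.8% of all protein-coding genes had such a region, so its absence says little about the cell type. H2A.Z WT was at 1 of the 8 ESC genes, Esrrb, and H2A.Z AP3 at 0 of them. All 6 fibroblast genes looked up carried H3K27me3 and H2A.Z WT, against 17.8% and 60.9% of all genes. Of them 5, Col1a1, Col1a2, Thy1, Twist1 and Snai2, also carried H2A.Z AP3, against 22.3% of all genes. Col1a2 lies on chromosome 6.

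The sequences on which the H2A.Z AP3 results turn are shown first. The 5 H2A.Z AP3 regions found within 2 kb of a coding start of any of the 7 genes lay at Gata2 and Gata4, and the central 30 bases of each (25 bases where the region was no longer) are given 5′ to 3′ on the strand of the gene, with CpG dinucleotides in capitals. The order is by position, at chr6:88144411-88144440, chr6:88146961-88146990, chr6:88150198-88150227, chr14:63863751-63863775 and chr14:63864386-63864415 (mm9). Both Gata2 a and Gata2 b lay in introns, and Gata2 c overlapped coding sequence, at least in part. Both Gata4 stretches lay in introns.
Gata2 a: tgggggagagCGtagggtatggaagtcttt
Gata2 b: ggctggcactgagaccacccacctgcccag
Gata2 c: tttccctctgcacagccCGtctcacCGgag
Gata4 d: ggtgctggagaggtgCGtttggatt
Gata4 e: tggaCGtggaccactgagagtagggaggaa
A further stretch came from an H2A.Z AP3 region in an intron of Gata4, and is shown because it holds the only tandem of GATA words in an H2A.Z AP3 region of these genes. It lies at chr14:63875015-63875044 on the plus strand, and capitals mark the words AGATAA and AGATAG, whose last and first base is the same A.
Gata4 tandem: gtcacagatgacAGATAAGATAGgccggcc
The primers that the study used to follow the Zfpm2 promoter by ChIP-qPCR are shown because their product can be placed in the lists.
Zfpm2 forward: ggagatccgctcctagtcct
Zfpm2 reverse: cataaaaagggcgacgattg

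All 7 genes carried both H2A.Z WT and H3K27me3 within 2 kb of a coding start, and only Gata2 and Gata4 carried H2A.Z AP3 there. Within 1 kb of a start, H2A.Z WT was found at 6 of the 7, all but Zfpm1, and at 58.3% of all genes. Over all protein-coding genes, 60.9% had an H2A.Z WT region at the promoter, 17.8% an H3K27me3 region, 16.9% both and 22.3% an H2A.Z AP3 region. Promoter here means all sequence within 2 kb of any coding start. Of promoters with H3K27me3, 94.8% also had H2A.Z WT. Among 13599 promoters with H2A.Z WT, 34.5% carried H2A.Z AP3. Among the 3778 promoters with H2A.Z WT and H3K27me3, 44.2% carried H2A.Z AP3, and 40.1% when chromosomes 6 and 8 were left out, against 2 of the 7 genes. All 3 libraries met at 7.48% of promoters. The same genes were called at 1e-12, where the shares over all genes were 59.2% for H2A.Z WT, 15.5% for H3K27me3 and 18.1% for H2A.Z AP3.

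The 7 genes differed widely in the length covered at their promoters. H2A.Z WT covered from 264 bp at Zfpm1 to 4626 bp at Gata2, with a median of 1575 bp, against 650 bp over the 13599 genes that carried it. H3K27me3 covered from 1075 bp at Zfpm1 to 7052 bp at Gata2, with a median of 3350 bp, against 1000 bp over the 3984 genes that carried it. H2A.Z AP3 covered 475 bp at Gata2, 275 bp at Gata4 and 0 bp at the other 5, against a median of 200 bp over the 4976 genes that carried it. H3K27me3 exceeded H2A.Z WT in length at 6 of the 7 genes, and Zfpm2 was the exception. Genes with several distant starts have longer windows, up to 12594 bp for Gata4, so shares of the window were also taken. For H2A.Z WT the median share was 18.745% in the 7 genes, against 12.497% over the genes that carried it. For H3K27me3 the median share was 59.4% against 18.1%. By H2A.Z WT share, 80.8% of all genes were lower than Gata4, 80.9% than Gata3 and 70.4% than Zfpm2. By base pairs the values were 98.5%, 93.3% and 94.1%. Gata2 fell from 99.9% to 99.5%, and Gata5, Gata6 and Zfpm1 ranked higher by share than by base pairs.

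**Figure D1:**
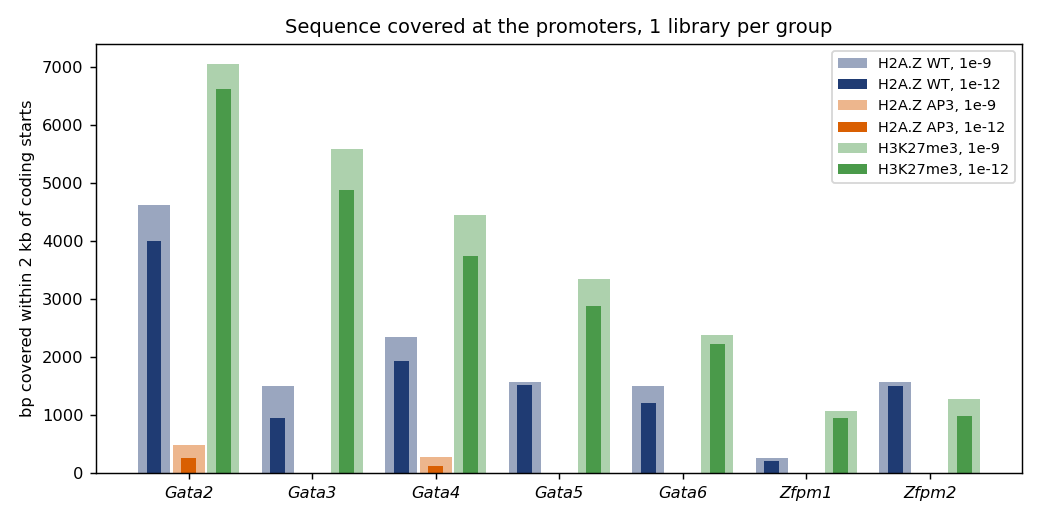
Base pairs covered within 2 kb of any coding start (vertical axis) in each of the 7 genes, with 1 library per group and no error bars; pale wide bars are the 1e-9 lists and dark narrow bars the 1e-12 lists. Gata2 has the longest coverage in all 3 libraries, with 4626, 475 and 7052 bp at 1e-9, and only Gata2 and Gata4 have H2A.Z AP3 bars.

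Gata2, which maintains blood stem and progenitor cells, was the most heavily covered member (ENSMUSG00000015053.8, plus strand, chr6:88143885-88157024). It has 2 coding starts, at 88143885 and 88148658. Its promoters held 4626 bp of H2A.Z WT, 475 bp of H2A.Z AP3 and 7052 bp of H3K27me3 in a window of 8002 bp, or 57.8%, 5.94% and 88.1% of it. For both H2A.Z WT and H3K27me3, 99.9% of all protein-coding genes had fewer base pairs. A single H2A.Z WT region of 3300 bp, the longest at any of the 7 genes, ran from 632 bp before to 2667 bp after the downstream start, and another of 1500 bp spanned the upstream start. H3K27me3 lay on either side of each start and left gaps of 350 bp and 300 bp that held the starts. The 4 H2A.Z AP3 regions lay wholly inside both H2A.Z WT and H3K27me3 regions. They were 200 bp at 2909 bp to 2710 bp before the upstream start, 200 bp at 441 bp to 640 bp after it (Gata2 a), 50 bp at 1707 bp to 1658 bp before the downstream start (Gata2 b) and 225 bp at 1443 bp to 1667 bp after that start (Gata2 c). No H2A.Z AP3 region touched a start, and Gata2 b was the only one of the 4 lost at 1e-12.

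Gata3, a regulator of T cells, trophoblast and other epithelia, had the longest Polycomb domain (ENSMUSG00000015619.9, minus strand, chr2:9778705-9811661). Its starts at 9811661 and 9800227 were covered by 1500 bp of H2A.Z WT, no H2A.Z AP3 and 5589 bp of H3K27me3 within 2 kb. Joined across gaps of up to 1 kb, H3K27me3 regions formed a domain of 20075 bp at chr2:9793726-9813800 that held both starts, rank 30 from the longest of 8348 such domains. H2A.Z WT was in short pieces, 13 regions of at most 700 bp in the gene with 10 kb on each side, and 98.3% of its promoter base pairs lay within H3K27me3. The start at 9811661 was the only start group of the 7 genes whose first base lay in H3K27me3, and H2A.Z WT covered neither Gata3 start. The domain also holds starts of the genes 4930412O13Rik and 9230102O04Rik and of the transcript Gm13256, so its regions cannot be assigned to Gata3 alone.

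Gata4, a heart and endoderm factor, had 6 annotated coding starts in 3 groups, and its coverage was concentrated at the middle one (ENSMUSG00000021944.8, minus strand, chr14:63817759-63890529). At the starts around 63864108, H2A.Z WT covered 2100 bp in a single region that spanned the start, H2A.Z AP3 275 bp and H3K27me3 3183 bp. At the most upstream starts, around 63890529, it had 25 bp of H2A.Z WT and 997 bp of H3K27me3 within 2 kb of the first base. At the most downstream start, 63832444, it had 150 bp of H2A.Z WT, and neither H2A.Z AP3 nor H3K27me3 was called. The starts of the middle group had 63 CpG dinucleotides within 500 bp, those of the upstream group 12 and the downstream start 9. The H2A.Z AP3 regions near the middle starts were 250 bp long at 417 bp to 168 bp before 63864108 (Gata4 e) and 25 bp long at 310 bp to 334 bp after the start at 63864085 (Gata4 d). Gata4 e overlapped H3K27me3 over 175 bp, and Gata4 d was absent at 1e-12.

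Gata5, a heart and endoderm factor, was compactly marked at its paired starts (ENSMUSG00000015627.4, minus strand, chr2:180059838-180069404). A single H2A.Z WT region of 1575 bp spanned the starts at 180069404 and 180069259, and 38.0% of its window of 4146 bp was covered. H3K27me3 covered 3350 bp, or 80.8% of the window, with a gap of 225 bp that held the upstream start, while the start at 180069259 lay within H3K27me3. Gata5 was the only member with no H2A.Z AP3 region either at the promoter or in the gene with 10 kb of flank at 1e-9, and at 1e-12 Zfpm2 had none either. Gm14318, transcribed the other way, starts 1697 bp from Gata5, within the same window.

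Gata6, required for primitive endoderm, had a start free of H3K27me3 over 900 bp (ENSMUSG00000005836.8, plus strand, chr18:11052508-11085633). H2A.Z WT covered 1500 bp of its promoter window and H3K27me3 2375 bp, and an H2A.Z WT region of 875 bp filled most of that gap, from 382 bp before to 492 bp after the start. Only 41.7% of its H2A.Z WT base pairs lay in H3K27me3. The start of the non-coding RNA 1010001N08Rik lies 57 bp away on the other strand, so the gap holds both starts. Its joined H3K27me3 domain measured 11675 bp and ranked 112. The product of the study's Gata6 promoter primers (179 bp, 73 bp to 251 bp after the start) lay wholly in H2A.Z WT, with 84 bp in H3K27me3 and 0 bp in H2A.Z AP3.

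Zfpm1 (FOG1), the partner of Gata factors in red cell and platelet formation, was the least covered at its start (ENSMUSG00000049577.7, plus strand, chr8:124806039-124861146). H2A.Z WT covered 264 bp of its promoter window, beginning 1737 bp after the start, and 49.4% of protein-coding genes had fewer base pairs. H3K27me3 covered 1075 bp, beginning 737 bp after the start, and nothing was called from 3388 bp before the start to there in that library. Yet the gene had 135 CpG dinucleotides within 500 bp of its start, more than 99.0% of genes, and no unknown bases within 2 kb. Of 215 genes with at least as many CpG dinucleotides, 81.4% carried H2A.Z WT, with a median of 400 bp, and 87 had 264 bp or less. Most of the H2A.Z WT of Zfpm1 lay away from the start, 10300 bp in 15 regions of the gene with flank, and 99.4% of genes had fewer base pairs there. The longest, of 3200 bp, lay at the 3′ end of the gene. Both H2A.Z AP3 regions of Zfpm1, of 50 bp and 500 bp, lay inside it and overlapped coding sequence.

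Zfpm2 (FOG2), the partner of Gata4 in heart development, is the longest gene of the set, at 449551 bp (ENSMUSG00000022306.7, plus strand, chr15:40486588-40936138). Its H2A.Z WT and H3K27me3 were found at 1 of its 3 starts, 40486588, with 1575 bp of H2A.Z WT and 1275 bp of H3K27me3. Neither was called within 2 kb of the starts at 40496536 and 40583293. The start with these regions had 76 CpG dinucleotides within 500 bp and the others 6 and 9. H2A.Z WT lay from 662 bp to 63 bp before the start and from 288 bp to 1262 bp after it, leaving the start itself uncovered. The product of the printed Zfpm2 primers (chr15:40487215-40487403, 189 bp, 627 bp to 815 bp after the start) lay wholly in H2A.Z WT in both lists. It also lay wholly in H3K27me3 in both lists, and had 0 bp in H2A.Z AP3. In its ChIP-qPCR of the variant H3.3, by contrast, the study grouped Zfpm2 with active rather than bivalent H2A.Z targets.

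**Figure D2:**
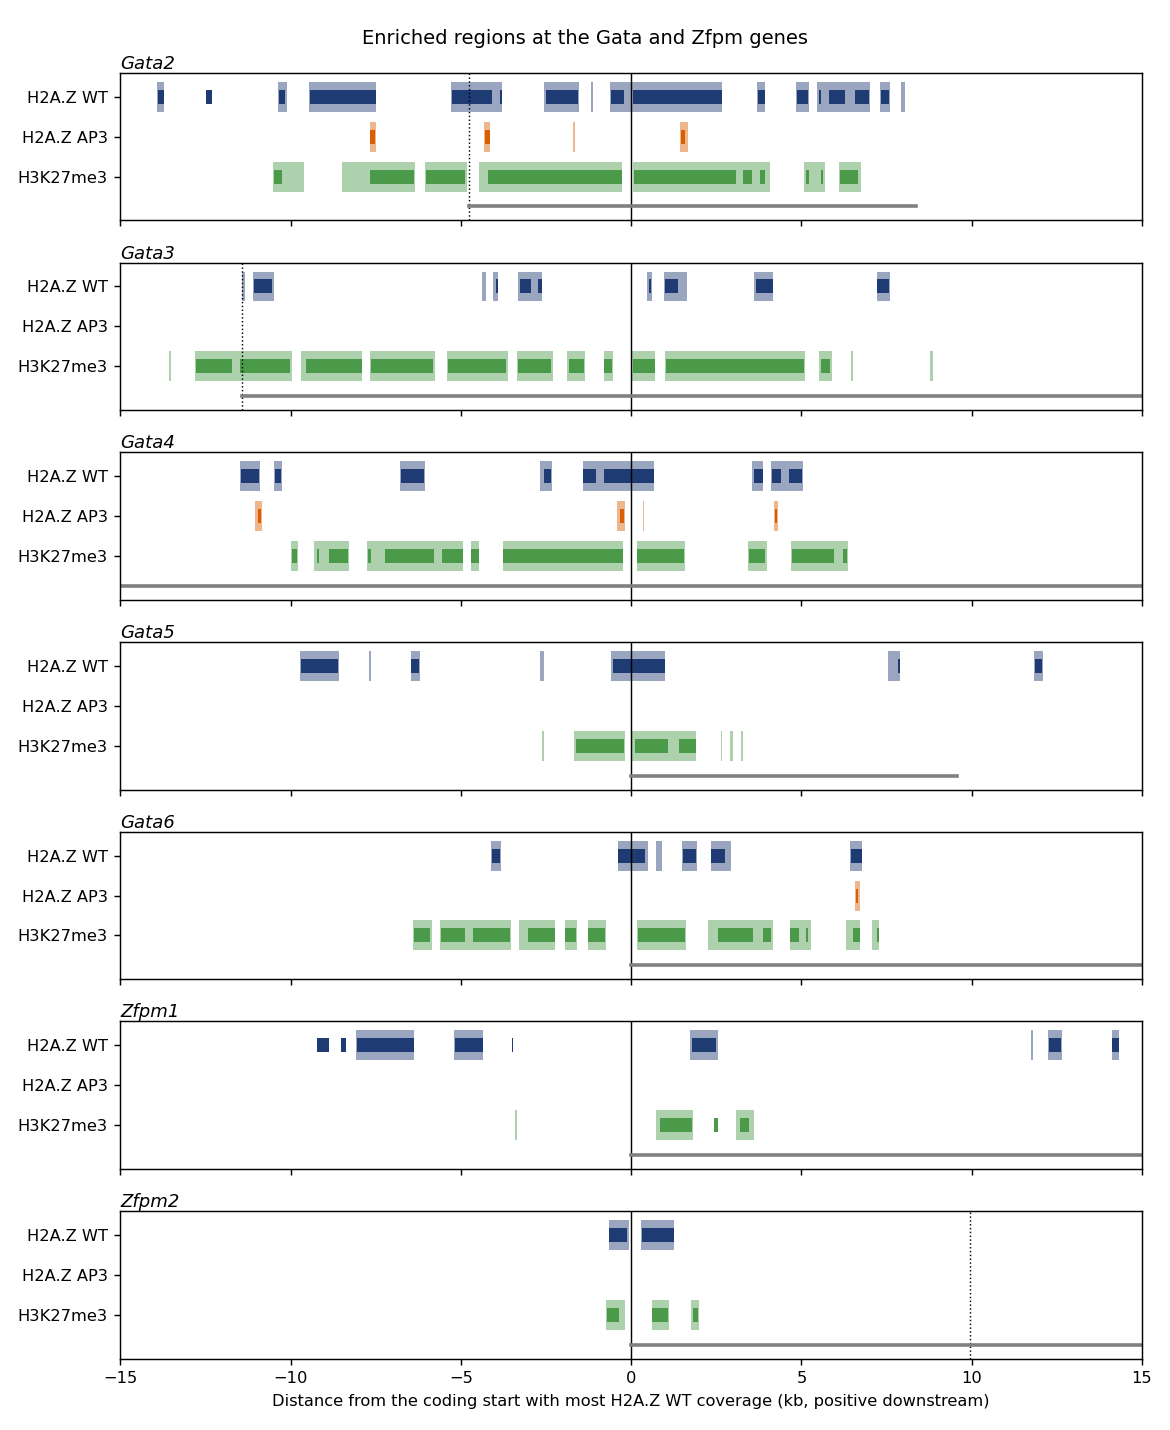
Enriched regions within 15 kb of 1 coding start of each gene (horizontal axis, kb, positive downstream; the start with most H2A.Z WT is the solid line, other start groups are dotted and the gene is the grey bar); pale bars are the 1e-9 lists and dark bars the 1e-12 lists. At the solid line H3K27me3 lies on both sides, with a gap of 225 bp to 900 bp at every gene but Zfpm1, where the gap is 4125 bp. H2A.Z AP3 appears as short pieces of 25 bp to 250 bp at Gata2, Gata4 and Gata6.

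H3K27me3 was lowest at the start base itself. The 17 coding starts formed 13 groups when starts within 1 kb were joined, each group placed at its most upstream start. H3K27me3 was present within 2 kb of 10 groups and covered the start base in 1 of them (10%), against 19.5% of 4478 such groups over all genes. At 1000 bp after the start it covered 9 of the 10 (90%), against 45% over all genes, and at 500 bp before it 6 of the 10 (60%), against 30.4%. H2A.Z WT covered the start base in 5 of the 10 (50%), a share close to the 45% over all genes. In those 5 groups, at Gata2 (both), Gata4, Gata5 and Gata6, the start base lay in H2A.Z WT but not in H3K27me3, against 33.7% of all such groups. These small counts depend on where each group is placed, since the other Gata5 start, 180069259, lay in both H3K27me3 and H2A.Z WT. Downstream sequence held 1.79 times as many H2A.Z WT base pairs as upstream sequence over the 13 groups, close to the ratio of 1.73 over all 29992 groups, and H3K27me3 gave ratios of 1.42 and 1.51.

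**Figure D3:**
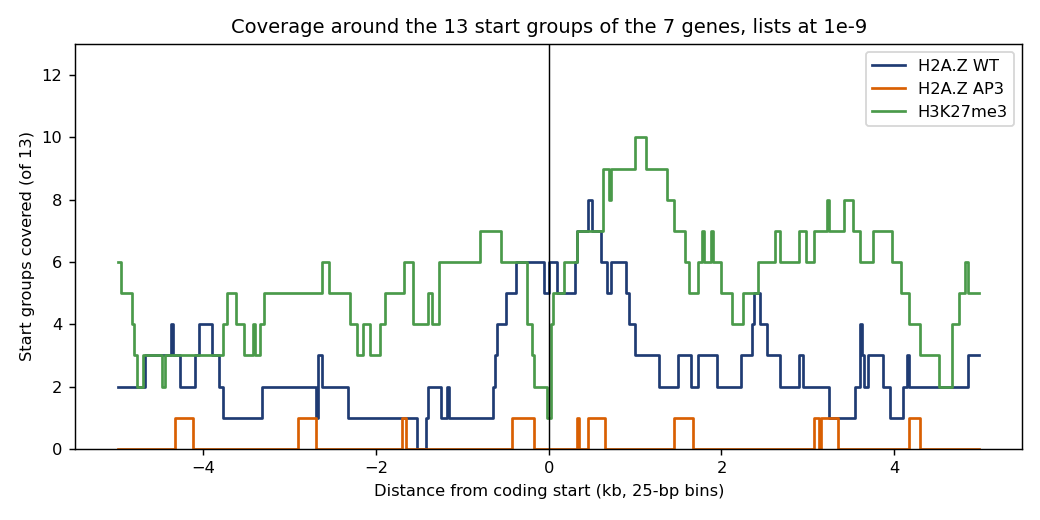
Number of the 13 start groups of the 7 genes covered (vertical axis) in each 25-bp bin within 5 kb of the start (horizontal axis, kb, positive downstream), lists at 1e-9. H3K27me3 falls to 1 group at the start and reaches 10 near 1 kb downstream, H2A.Z WT reaches 8 near 0.5 kb downstream, and H2A.Z AP3 never exceeds 1.

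The shared sequence of H2A.Z WT and H3K27me3 was large at most of these promoters. Of the H2A.Z WT base pairs at the promoters of the 7 genes, 76.4% lay in H3K27me3, against 42.3% when all promoters with both were summed. By gene the share was 98.3% at Gata3, 85.9% at Gata2, 85.7% at Gata5, 74.5% at Gata4, 61.9% at Zfpm2, 41.7% at Gata6 and 28.4% at Zfpm1. In the same order, H3K27me3 filled 69.8%, 88.1%, 80.8%, 35.3%, 10.6%, 59.4% and 26.9% of the promoter window. Its median share of the window was 59.4% in the 7 genes, against 18.1% over the genes that carried it. The part of this long H3K27me3 coverage in the overlap was not tested. The reverse share, of H3K27me3 base pairs in H2A.Z WT, was 40.6% against 37.5%.

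In the genes with 10 kb on each side, there were 71 H2A.Z WT regions, 62 H3K27me3 regions and 14 H2A.Z AP3 regions. H2A.Z WT and H3K27me3 were found in all 7 gene windows, where 75.1% and 24.9% of all genes had them, and H2A.Z AP3 in 6 of the 7, where 39.2% of all genes had it. At 1e-12 the counts were 7, 7 and 5 of the 7, with 72.8%, 21.3% and 32.6% of all genes. H2A.Z WT regions at the 7 genes had a median length of 375 bp against 250 bp in the whole list, and H3K27me3 regions 575 bp against 250 bp. H2A.Z AP3 regions had a median length of 175 bp in both. Of the 71 H2A.Z WT regions, 19 held a start or lay within 2 kb of it, 12 others lay in exons, 20 in introns and 20 in flanks. Gata2 and Zfpm1 had the most H2A.Z WT in their windows, 11125 bp and 10300 bp, and Gata3 the most H3K27me3, 18175 bp. Zfpm2 had the least of both, 2125 bp and 1275 bp, in a window of 469551 bp. Gata2 and Zfpm1 lie on chromosomes 6 and 8, where H2A.Z WT regions in gene windows were numerous for the number of genes, and the part of this was not tested.

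H3K27me3 overlapped a larger share of the H2A.Z WT regions at these genes than of those at other genes. Of the 71 regions, 38 overlapped H3K27me3 (53.5%, 95% Wilson interval 42% to 64.6%), against 10.8% of the 52744 in all gene windows and 22.3% of the 24266 in windows of genes with H3K27me3 at the promoter. The interval covers counting error only and treats regions as independent, which neighbours are not. H3K27me3 filled a median of 15.8% of the 7 gene windows, against 1.54% over the genes that carried it. The part of this in the overlap was not tested. All 6 H2A.Z WT regions of Gata6 overlapped H3K27me3, but 2 of 8 at Gata5 and 2 of 15 at Zfpm1 did so. Joined H3K27me3 domains of at least 5 kb made up 6.21% of all domains, and such a domain was found at Gata2 (15250 bp), Gata3, Gata4 (11575 bp and 6375 bp), Gata5 (5875 bp) and Gata6. Those at the cofactor genes were shorter, 2725 bp at Zfpm2 and at most 1625 bp at Zfpm1.

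The share of H2A.Z WT regions that overlapped H2A.Z AP3 was close to that at other genes. Of the 71 regions, 10 overlapped H2A.Z AP3 (14.1%, 7.83% to 24%), against 14.7% in all gene windows and 14.1% in windows of genes with H3K27me3 at the promoter. These 10 regions, 4 each at Gata2 and Gata4 and 1 each at Gata6 and Zfpm1, had a median length of 1262.5 bp (350 bp to 3300 bp), and the 61 without H2A.Z AP3 a median of 275 bp (25 bp to 1725 bp). Region length thus moved with the overlap, and its part in it was not tested. H2A.Z AP3 base pairs came to 5.59% of H2A.Z WT base pairs over the 7 gene windows, against 13.6% over all gene windows. The share was 11% at Gata4, 6.07% at Gata2, 5.50% at Gata6, 5.34% at Zfpm1, 3.70% at Gata3, 1.18% at Zfpm2 and 0 at Gata5. At promoters alone the sum was 5.60% against 14.6%. In these and the other sums over many genes, sequence shared by neighbouring windows counted once for each gene. The whole lists covered 28.3 Mb for H2A.Z WT and 3.50 Mb for H2A.Z AP3. At 1e-12 the share over the 7 gene windows was 6.17% against 11.6%, with Zfpm1 at 12.4%, Gata4 at 8.37% and Zfpm2 at 0. The part of depth in these shares was not tested, and no test between them was possible.

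The members were also set beside promoters with long H2A.Z WT coverage. The limit of 1500 bp was taken from the members themselves, as the lowest value among those other than Zfpm1. The 6 members therefore fall in the class by construction. Of the 1014 genes with H3K27me3 and at least 1500 bp of H2A.Z WT at the promoter, 63.5% had H2A.Z AP3, or 57.8% of the 816 outside chromosomes 6 and 8. Of the 6 members in that class, Gata2 and Gata4 had it and Gata3, Gata5, Gata6 and Zfpm2 did not. These 4 had 1500 bp or 1575 bp of H2A.Z WT, at the lower edge of a class with a median of 1950 bp. A narrower class, also chosen after these values were seen, held 773 genes with H3K27me3 and 1250 bp to 1750 bp of H2A.Z WT. Of the 773, 54.3% had H2A.Z AP3, or 50.2% outside chromosomes 6 and 8. The limits of this class left out Gata2, with 4626 bp, and Gata4, with 2350 bp, the only members with H2A.Z AP3. That 0 of these 4 members had it was thus fixed by the choice of class, and cannot be set against these shares. H2A.Z AP3 base pairs were 5.71% of H2A.Z WT base pairs in these 6 and 13.6% in the 1014. By chromosome, 80.7% of promoters with H2A.Z WT and H3K27me3 carried H2A.Z AP3 on chromosome 6 with Gata2 and 75.7% on chromosome 8 with Zfpm1, where Zfpm1 itself did not. The shares were 42.4% on chromosome 2 with Gata3 and Gata5, 39.5% on chromosome 14 with Gata4, 34.1% on chromosome 15 with Zfpm2 and 34.4% on chromosome 18 with Gata6.

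**Figure D4:**
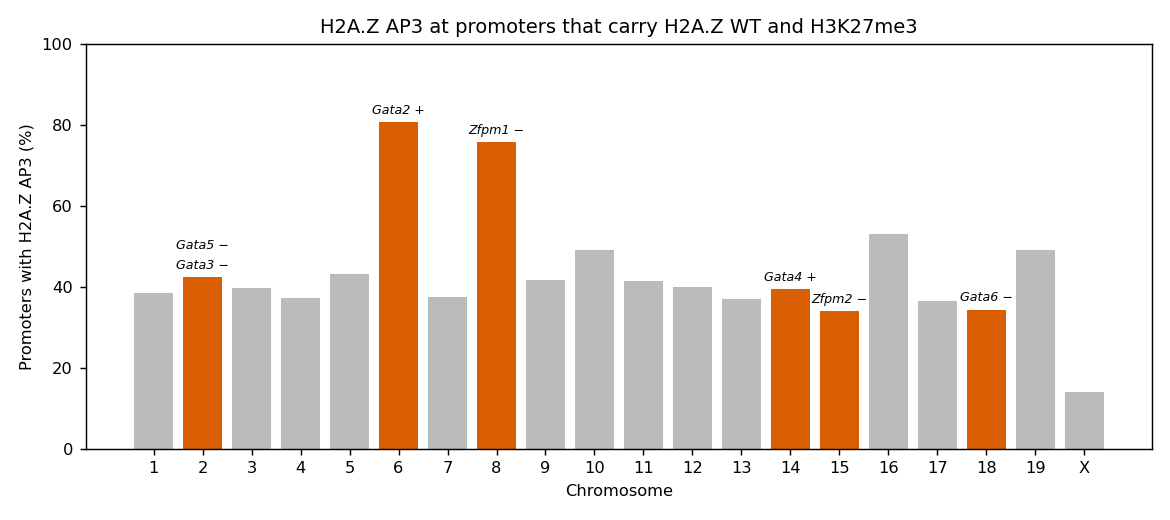
Share of promoters with both H2A.Z WT and H3K27me3 that also carry H2A.Z AP3 (vertical axis, %), by chromosome (horizontal axis); orange bars are chromosomes with 1 or more of the 7 genes, and + or − after a gene says whether its own promoter has H2A.Z AP3. Chromosomes 6 and 8 stand at 80.7% and 75.7%, and the other chromosomes with a member lie between 34.1% and 42.4%.

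The 14 H2A.Z AP3 regions of the gene windows had the median length of the whole list, 175 bp, and none held a start. Among start groups with H2A.Z AP3 within 2 kb, it covered the start in 0 of 3 at these genes and 636 of 5293 over all genes. Their lengths ran from 25 bp to 500 bp, 12 overlapped an H2A.Z WT region and 9 an H3K27me3 region. The same overlaps were not counted over the whole H2A.Z AP3 list. Away from promoters, 1 lay in the upstream flank of Gata2, already given, and 1 of 150 bp in the downstream flank of Gata3 (chr2:9778076-9778225), without H2A.Z WT. Gata4 had 3, 1 of 125 bp that overlapped coding sequence and 2 of 200 bp in introns. That with the printed GATA tandem (chr14:63874951-63875150) shared 150 bp with H2A.Z WT and had no H3K27me3. Gata6 had 1 of 150 bp that overlapped coding sequence, 6568 bp to 6717 bp after its start and inside both other marks. Zfpm2 had 1 of 25 bp near its 3′ end, overlapping coding sequence and without H2A.Z WT, that was not called at 1e-12. At 1e-12, 10 of the 14 were kept (71.4%, 45.4% to 88.3%), against 55.4% of the whole H2A.Z AP3 list, 56 of the 71 H2A.Z WT regions (78.9%, against 75.7%) and 49 of the 62 H3K27me3 regions (79.0%, against 67.7%).

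Windows around the centres of the regions of these genes held GATA words in similar or smaller shares than those of the whole lists. The words searched, on both strands in the 200 bp around the centre of each region, were AGATAA, the same word beginning with T (TGATAA), the same word ending in G (AGATAG) and the word with both changes (TGATAG). Words may overlap by a base, as in the printed Gata4 tandem. At least 1 was found in the windows of 9 of the 71 H2A.Z WT regions (12.7%, against 12.9% of the whole list), 2 of the 14 H2A.Z AP3 regions (14.3%, against 16.2%) and 9 of the 62 H3K27me3 regions (14.5%, against 20.5%). The window runs past regions shorter than 200 bp, and at 1 of these H2A.Z AP3 and 4 of these H3K27me3 regions the word lay outside the region itself. Counted within the called sequence alone, a word was found in 26 of the 71 H2A.Z WT regions (36.6%, against 19.4% of the list), 1 of the 14 H2A.Z AP3 regions (7.14%, against 16.7%) and 28 of the 62 H3K27me3 regions (45.2%, against 33.2%). The H2A.Z WT and H3K27me3 regions of these genes are longer than those of the lists, and the part of length in these shares was not tested. Within 250 bp before to 50 bp after a coding start, 25.4% of all 45993 starts had such a word. Among the 17 coding starts of the 7 genes it was found at Gata3 9800227, which had 1, and at Gata4 63890529, which had 2.

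Other genes of the same programmes were looked up in lists, each described by counts at the promoter, to be read against the 60.9% of all genes with H2A.Z WT, 17.8% with H3K27me3 and 22.3% with H2A.Z AP3. Among 11 blood partners and regulators found, 9 had H2A.Z WT, 8 H3K27me3 and 5 H2A.Z AP3. Those with H2A.Z AP3 were Lmo2, Lyl1, Runx1, Klf1 and Zbtb7a, of which Lyl1 and Klf1 lie on chromosome 8. Tal1, the partner of Gata factors in blood stem cells, had 1300 bp of H2A.Z WT and the most H3K27me3 of this list, 5100 bp, with no H2A.Z AP3. Runx1 had the most H2A.Z WT, 2800 bp, and Klf1, a red cell factor, the most H2A.Z AP3, 525 bp, with no H3K27me3.

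Of 12 heart partners and targets, 11 had H2A.Z WT, 7 H3K27me3 and 5 H2A.Z AP3, the latter Nkx2-5, Tbx5, Hand1, Hand2 and Srf. Of these, Hand2 lies on chromosome 8. Hand1, which acts in heart and trophoblast, had the most in all 3 libraries, 2627 bp of H2A.Z WT, 575 bp of H2A.Z AP3 and 3777 bp of H3K27me3. Of 11 endoderm partners and targets, 9 had H2A.Z WT, 7 H3K27me3 and 4 H2A.Z AP3, the latter Sox7, Foxa2, Dab2 and Lama1. Pdgfra, a receptor of primitive endoderm cells, had the most H2A.Z WT, 2700 bp, Foxa2 the most H3K27me3, 4547 bp, and the laminin gene Lama1 the most H2A.Z AP3, 421 bp. All 9 trophoblast partners had H2A.Z WT, 7 had H3K27me3, and Eomes and Hand1 had H2A.Z AP3. In that list Tead4 had the most H2A.Z WT, 2675 bp without H3K27me3, and Tfap2a the most H3K27me3, 5856 bp.

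The median H3K27me3 length was 525 bp in the blood and in the heart list, 25 bp in the endoderm list, where Dab2 and Lamb1 had 25 bp each and 4 genes 0 bp, and 3075 bp in the trophoblast list, against 3350 bp in the 7 genes. The median H2A.Z WT lengths, in the same order, were 825 bp, 587.5 bp, 721 bp and 1425 bp, against 1575 bp. Genes of the wider GATA zinc finger class, which include subunits of the NuRD complex that is present in most cells, had no H3K27me3. Of these 9, 6 had H2A.Z WT, with a median of 200 bp, and Trps1, Mta2 and Zglp1 had H2A.Z AP3, the most at Mta2, 900 bp.

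**Figure D5:**
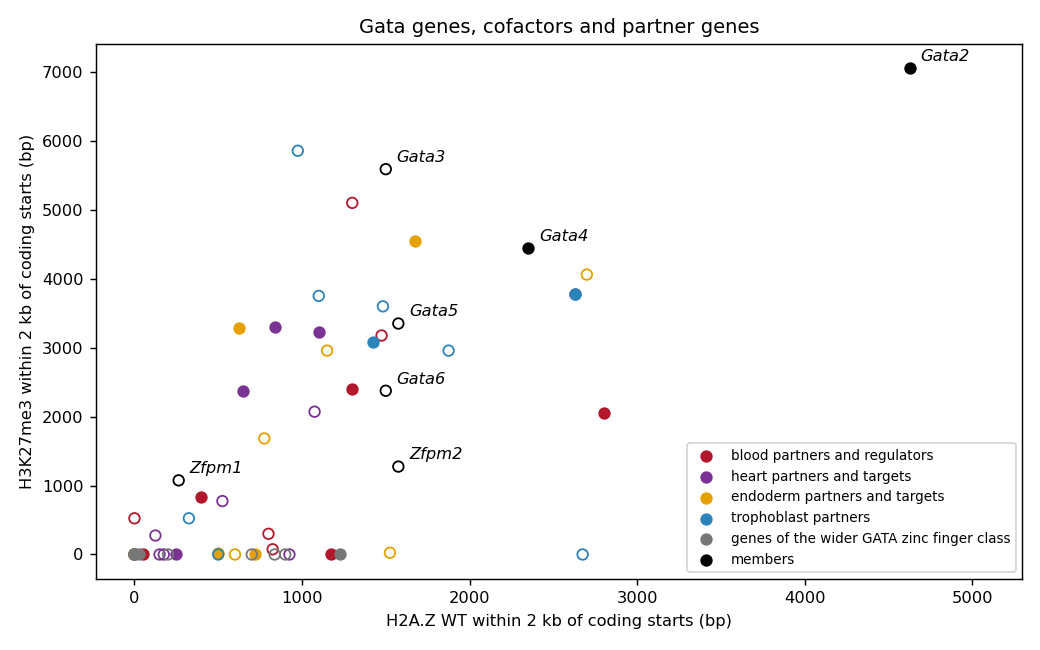
H2A.Z WT (horizontal axis) and H3K27me3 (vertical axis) in base pairs within 2 kb of coding starts, 1 point per gene, coloured by list, with the 7 genes in black and named; filled points carry H2A.Z AP3 and open points do not, and Hand1 stands in both the heart and the trophoblast list. Gata2 has the most of both marks among the genes plotted, 4626 bp and 7052 bp.

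The promoter most like each member was found from the coverage of the 3 libraries in 16 bins of 250 bp around the most upstream coding start, as the smallest summed difference. For Gata2 it was Fam163a (1082 bp), for Gata3 Ptch1 (934 bp), for Gata4 Slc16a9 (373 bp), for Gata5 1300014I06Rik (722 bp), for Gata6 6030405A18Rik (1289 bp), for Zfpm1 Lrrtm3 (408 bp) and for Zfpm2 Susd4 (1157 bp). Small differences at Gata4 and Zfpm1 go with little coverage at that start, 1021 bp and 1338 bp summed over the libraries, against 5050 bp at Gata2. Among the members, Gata2 and Gata5 were nearest to each other (1315 bp), as were Gata4 and Zfpm1 (951 bp).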

How the data were processed

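ChIP-Seq libraries of mouse ESCs (1 each for H3K27me3, wild-type H2A.Z and H2A.Z AP3) were grouped by the genotype and antibody labels. Per the study's methods, the authors aligned ChIP-Seq reads from an Illumina Genome Analyzer to mm9 with Bowtie 0.12.3 and extended them. They allocated the reads to bins of 25 bp and called bins enriched for H2A.Z by a Poisson model at 1e-9 with a minimal fold over input. For H3K27me3 the methods refer to peaks from the authors' earlier work and do not describe the calling. The deposited values are region starts and ends, called per library. The lists named 1e-12 are not described in those methods. Input and reads were not analysed here, and the depth is unknown, so covered length mixes depth with enrichment.

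The 7 genes and all gene lists were chosen with earlier results of these data known. Coding starts came from GENCODE vM1 on NCBIM37, the same assembly, and 0 regions ran past a chromosome end. Overlap meant at least 1 bp. All 7 genes are named, and of the 5 partner gene lists the gene with most base pairs of each library and every gene with H2A.Z AP3 where there were 5 or fewer. Tal1 fell under this rule. Of 12 blood genes Gfi1 was not found as protein-coding, Tfap2a and Tfap2c were matched by older symbols, and 1 gene of the endoderm list is not reported here, so that the list's counts and medians are those of the other 11. Intervals are Wilson's at 95% and cover counting error only. Overlap routines were tested on simulated intervals. Alternatives were the 1e-12 list, the union of both lists, other windows, starts, overlaps, flanks and minimum lengths, joined regions, and omission of chromosomes 6 and 8 or of Zfpm2. Python 3.11.15, NumPy 2.4.6, SciPy 1.17.1 and Matplotlib 3.10.9 were used.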

Additional observations from a re-analysis of the deposited data

Results flagged for a closer look

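In the windows of these genes 6 H2A.Z WT regions of the 1e-12 list, 1075 bp in all, had no counterpart at 1e-9. They were picked out because the values above rest on the 1e-9 lists alone. Of the 6, 4 lay at Zfpm1, 1 at Gata2 (chr6:88136176-88136350) and 1 at Gata3. At Zfpm1, 2 regions of the H2A.Z AP3 list at 1e-12, of 225 bp and 425 bp in the downstream flank, were likewise absent at 1e-9, and both lay inside H2A.Z WT regions. Over the genome 8.05% of H2A.Z WT, 23.4% of H2A.Z AP3 and 3.24% of H3K27me3 regions at 1e-12 had no counterpart at 1e-9. The cause was not tested.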

How the results depend on the processing

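Of 64 alternative values computed, 54 stayed within the tolerance and 10 did not, the tolerance being 1.5 times for counts and covered lengths and the 95% Wilson interval of the given value for shares. Within it, H2A.Z WT was at 6 promoters with a window of 1 kb. Those values come from 1 library per group at unknown depth, so no library could be left out and no spread between libraries was available. No paired analysis was possible because the labels give no replicate numbers and each group has 1 library. With the most upstream start alone, H2A.Z AP3 was at 1 promoter (Gata2), and the summed promoter coverage was 7114 bp for H2A.Z WT (13390 bp with all starts), 200 bp for H2A.Z AP3 (750 bp) and 15538 bp for H3K27me3 (25164 bp), since fewer windows were counted. H2A.Z AP3 at promoters summed to 375 bp at 1e-12 and to 1250 bp with regions joined across 1 kb. When at least 50% of an H2A.Z WT region had to be covered, 0% overlapped H2A.Z AP3, since its regions are shorter. Among regions of at least 100 bp, 88.7% of H2A.Z WT, 100% of H2A.Z AP3 and 94.2% of H3K27me3 regions were kept at 1e-12. At 1e-12 Zfpm2 had no H2A.Z AP3 in its gene window, and 5 of the 7 genes did.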
